A study of Rattus norvegicus with 16 samples.

Results

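Insulin and leptin reach the brain from the blood and report on stored energy. Insulin binds the receptor tyrosine kinase encoded by Insr, which phosphorylates the docking proteins Irs1 and Irs2. These recruit phosphatidylinositol 3-kinase through its regulatory subunit Pik3r1, and the kinase Akt2 then phosphorylates the transcription factor Foxo1 and keeps it out of the nucleus. Leptin binds Lepr, whose associated JAK2 kinase activates the transcription factor Stat3. Stat3 induces Socs3, an inhibitor of the same receptor, and the phosphatase Ptpn1 (PTP1B) acts on both pathways. In the hypothalamus these pathways are known for restraining feeding, and in the hippocampus for effects on synapses and memory.

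These 10 genes were chosen by name, out of 16514 symbols listed in either of the deposited expression tables. They were measured by poly-A RNA sequencing of hippocampus and hypothalamus from male Sprague Dawley rats. Control rats had no treatment, and the other group was fed fructose for 6 weeks. The labels used here give neither an age nor the amount of fructose. They do not give the number of rats behind the samples, and a p-value therefore covers the spread of these samples alone, which may be technical. The comparison had 4 control and 4 fructose libraries in hippocampus, and 4 and 3 in hypothalamus, because the sample labelled hypothalamus fructose replicate 4 was not analysed here. A symbol with several loci was taken at the locus with the highest mean. By that rule 10 members were found in hippocampus and 9 in hypothalamus, where Lepr was not analysed. Loci with a mean of at least 1 FPKM (a measure scaled to transcript length and sequencing depth) were tested. This kept 8 members in hippocampus, with Socs3 (mean 0.996 FPKM) and Lepr (mean 0.018 FPKM) under the minimum, and 9 in hypothalamus.

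By summed levels the libraries carried the region markers of their labels. Summed FPKM of 12 hypothalamic markers was 5026 to 9558 in hypothalamus control libraries and 6.00 to 16.7 in those of hippocampus, and that of the hippocampal markers 208.8 to 309.1 in hippocampus controls and 35.8 to 48.7 in those of hypothalamus. Single markers did not all follow the sums. The hypothalamic marker Npy reached at most 0.093 FPKM in hypothalamus, and the hippocampal marker Fibcd1 was listed at 0 in both regions. Of the other hippocampal markers, Spink8 had means of 0.53 FPKM in hippocampus and 0.47 FPKM in hypothalamus. Zbtb20 was found in hypothalamus alone (mean 7.51 FPKM). In each region the control and fructose libraries of replicate 1 differed from the rest. Across loci their log2 values correlated at r = 0.985 with each other in hippocampus and at 0.84 to 0.896 with replicates 2 to 4, whose own pairwise r was 0.934 to 0.979. For hypothalamus the corresponding r was 0.98, 0.88 to 0.909, and 0.956 to 0.979. The members' fold changes are therefore also given without both replicate 1 libraries. Read depth is unknown, since the tables hold FPKM.

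Foxo1 was the member whose libraries separated by treatment, and it did so in hypothalamus. Its promoter is shown with that of Insr, because Insr and Irs2 are textbook targets of FOXO factors and the FOXO element can be looked for in the letters. The sequences are from RefSeq on build GRCr8, 5′ to 3′ on the gene's strand, and capitals mark the element TGTTTAC.
Insr, chr12:6128885-6128914, minus strand, 111 to 82 bases before the start site of the RefSeq table: acgggccgcgtTGTTTACtggccggagtcg
Foxo1, chr2:138462824-138462923, plus strand, 150 to 51 bases before the start site: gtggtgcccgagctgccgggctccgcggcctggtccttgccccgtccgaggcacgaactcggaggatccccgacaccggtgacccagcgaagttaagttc
Promoters of 9 members were in the table (Irs2 was not). Over windows of 250 bases before to 50 bases after the start site, TGTTTAC on either strand occurred in 1 of these 9, at bases 100 to 94 before the Insr start site, and in 3.78% of 33465 promoters. The STAT element TTCNNNGAA, which reads the same on both strands, occurred in 0 of the 9 and in 8.87% of all promoters. The Foxo1 stretch has a GC content of 69%, against a median of 52% for the same window of all promoters.

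Levels are per transcript length and can be set beside each other within a region. In hippocampus the docking protein Irs2 (23.0 FPKM, mean of 8 libraries) and the regulatory subunit Pik3r1 (21.8 FPKM) were highest, and Irs2 exceeded Pik3r1 in only 4 of 8 libraries. Ptpn1 (17.1 FPKM), Akt2 (14.9 FPKM) and Stat3 (14.9 FPKM) followed and were not ordered consistently, each exceeding the next in 5 of 8 libraries. Foxo1 (11.4 FPKM) was below Stat3 and above Insr (6.51 FPKM) in all 8 libraries. Insr exceeded Irs1 (3.44 FPKM) in 7 of 8, and Irs1 exceeded Socs3 (0.996 FPKM) in all 8. The insulin receptor thus ranked under the signalling genes downstream of it, Irs1 excepted, and Lepr ranked last.

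In hypothalamus Stat3 was highest at 27.7 FPKM (mean of 7 libraries) and exceeded Irs2 (23.2 FPKM) in all 7 libraries. Irs2 and Pik3r1 (22.8 FPKM) were again close, with Irs2 the higher in 5 of 7. Akt2 (16.6 FPKM) exceeded Foxo1 (8.58 FPKM) in all 7, and Foxo1 exceeded Ptpn1 (5.28 FPKM) in all 7. Insr was at 4.78 FPKM. Socs3 (2.49 FPKM) and Irs1 (1.99 FPKM) were lowest and not separated, Socs3 being higher in 4 of 7.

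The tables were normalized separately, so levels are set across the regions without a test. In control libraries the median symbol was 1.15 times higher in hypothalamus than in hippocampus. Stat3 was 1.89 times as high, at 26.5 against 14.0 FPKM, and all hypothalamus libraries lay above all hippocampus libraries. Ptpn1 was 0.328 times as high (5.11 against 15.6 FPKM) and Irs1 0.49 times (1.94 against 3.95 FPKM), with all hypothalamus libraries below all hippocampus libraries for both genes. The Irs1 control mean of hippocampus includes 6.97 FPKM in replicate 4, where the other controls were at 2.90 to 2.97 FPKM. For Irs1 the separation was narrow, with a highest hypothalamus value of 2.27 FPKM and a lowest hippocampus value of 2.38 FPKM. Socs3 had a ratio of 2.98 in the control means but overlapping libraries, and Foxo1 (0.643), Insr (0.729), Irs2 (0.95), Pik3r1 (0.956) and Akt2 (1.21) overlapped too. Ptpn1 and Insr have 2 loci in hippocampus and 1 in hypothalamus, so their ratios are uncertain.

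**Figure D1:**
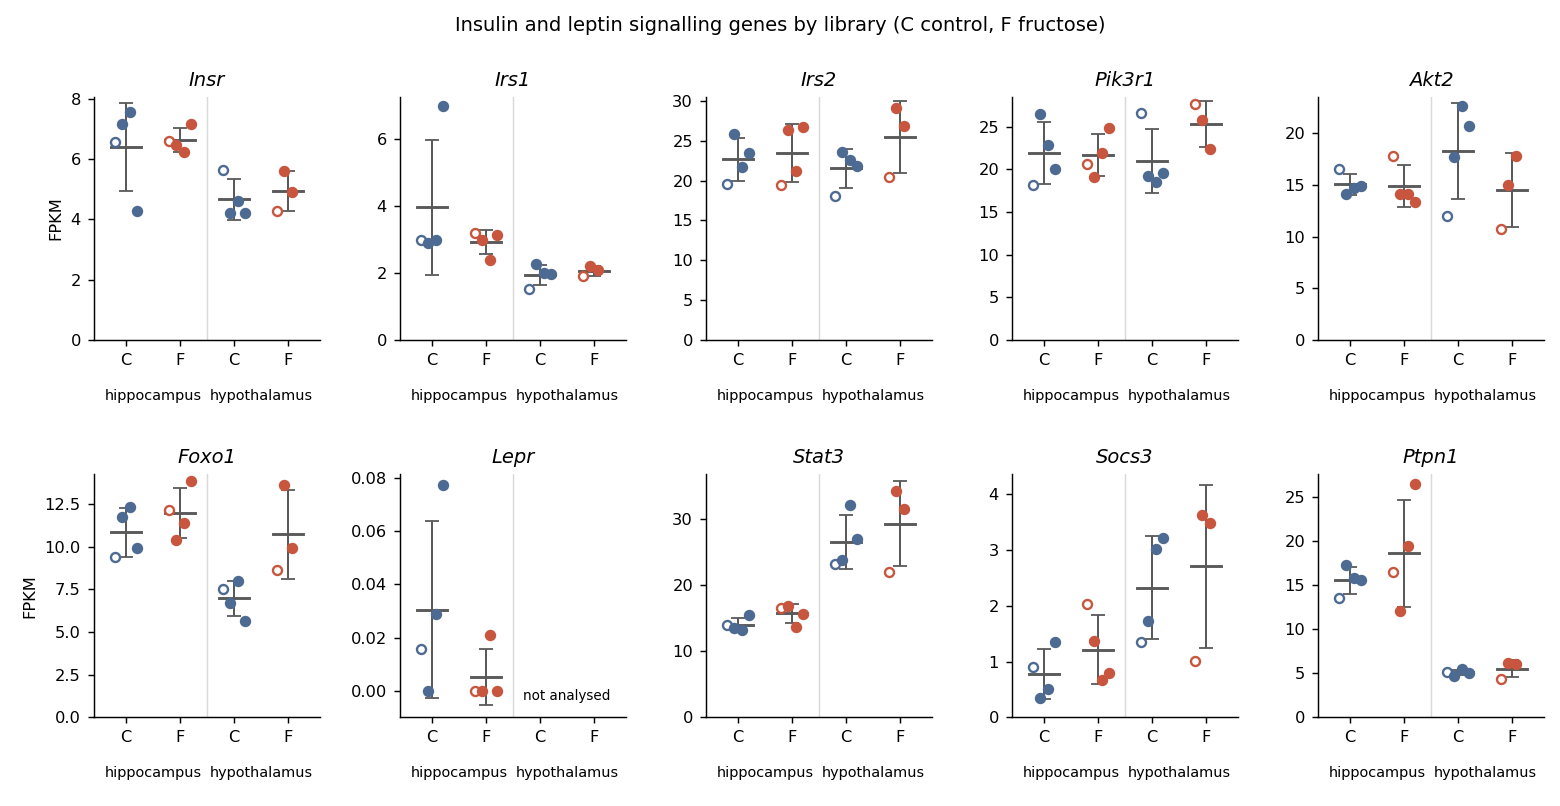
FPKM of the 10 genes in each library, at the locus with the highest mean; the y axis is linear and differs between panels, lines and bars are the mean and SD of a group, and open points are replicate 1 libraries. Foxo1 in hypothalamus is the panel where control (5.65 to 8.003 FPKM) and fructose (8.61 to 13.6 FPKM) points do not overlap.

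The comparison of fructose with control asks whether the diet altered transcripts of these pathways in each region. In hippocampus no member passed the test (limma on log2(FPKM + 1), Benjamini-Hochberg over all loci): 0 of 8, against 0% of the 11385 loci tested. None of the 8 had an unadjusted p under 0.05, which 0.808% of loci had, and the groups overlapped for all 8, where 0.668% of loci did not. Of the log2 fold changes 5 were positive (48.6% of all loci were) and 3 negative, from -0.27 for Irs1 to 0.20 for Ptpn1, with a median of 0.054 against -0.0038 over all loci.

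On the receptor side, Insr in hippocampus was at 6.57, 7.18, 7.58 and 4.28 FPKM in control replicates 1 to 4 and at 6.61, 6.47, 6.23 and 7.18 FPKM in fructose replicates 1 to 4. The groups overlapped, with control replicate 4 the lowest of all. The log2 fold change was 0.065 ± 0.16 (SE), with a 95% interval of -0.30 to 0.44. Insr has a second locus in this table, and reads could be split between the loci. The second locus was at 0.0869, 1.37, 0.135 and 3.45 FPKM in controls and 0.0365, 0.666, 0 and 2.62 FPKM in fructose libraries. It held 44.6% of the summed FPKM in control replicate 4, the library where the first locus was lowest. Summed over both loci, Insr was at a control mean of 7.66 ± 0.776 FPKM and a fructose mean of 7.45 ± 1.604 FPKM (SD, n = 4 each), and the log2 fold change turned to -0.049.

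**Figure D2:**
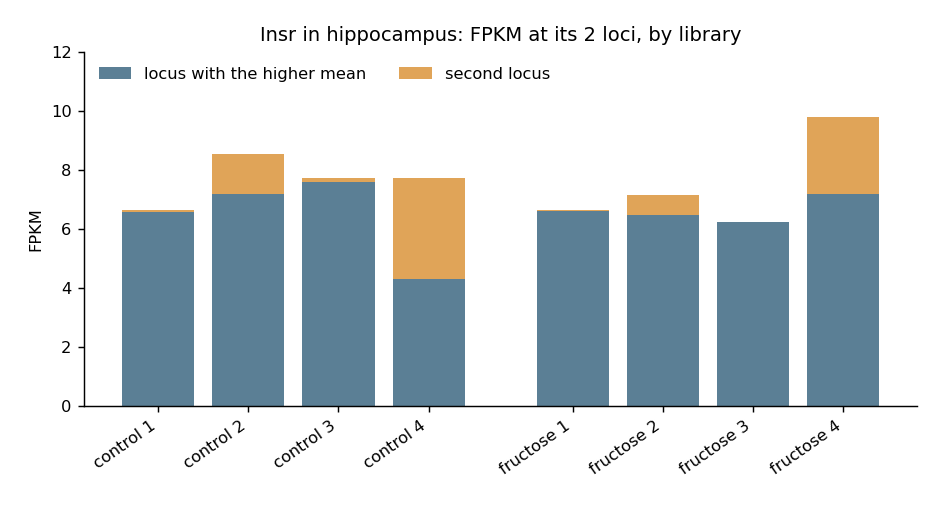
FPKM of Insr at its 2 loci in each hippocampus library, stacked. The second locus holds 44.6% of the sum in control replicate 4 and 26.7% in fructose replicate 4, and at most 1.75% in the replicate 1 and 3 libraries of both groups.

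The docking proteins did not separate either. Irs1 was at 2.97, 2.90, 2.97 and 6.97 FPKM in control and at 3.18, 2.99, 2.38 and 3.12 FPKM in fructose libraries, so that its lower fructose mean rests on control replicate 4. Its log2 fold change was -0.27 ± 0.24 and went to -0.016 without that library. Irs2 was at 19.6, 25.9, 21.7 and 23.5 FPKM in control and 19.5, 26.4, 21.2 and 26.7 FPKM in fructose libraries (log2 fold change 0.042 ± 0.14, 95% interval -0.28 to 0.36). Irs2 values were thus close between libraries of the same replicate number, with replicates 1 and 3 lower than 2 and 4 in both groups.

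Downstream, Pik3r1 had a control mean of 21.9 ± 3.63 FPKM and a fructose mean of 21.6 ± 2.45 FPKM (SD, n = 4 each), and Akt2 had means of 15.04 ± 1.02 and 14.9 ± 2.02 FPKM. Their log2 fold changes were -0.010 ± 0.14 and -0.023 ± 0.12, the smallest of the set. Foxo1 was at 9.37, 11.8, 12.3 and 9.90 FPKM in control and 12.2, 10.4, 11.4 and 13.8 FPKM in fructose libraries. These overlapped over most of their range, with a log2 fold change of 0.13 ± 0.13 and a 95% interval of -0.17 to 0.42.

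Of the leptin pathway in hippocampus, Lepr was listed at 0 in 4 of 8 libraries and reached 0.077 FPKM at most, in control replicate 4. No fold is given. A low listing need not be a low transcript level in these tables: Npy, a neuropeptide abundant in the hypothalamus and chosen here after its values were seen, was listed at 0 to 0.093 FPKM there. Stat3 was at 14.0, 13.5, 13.2 and 15.5 FPKM in control and 16.6, 16.9, 13.7 and 15.7 FPKM in fructose libraries, and 3 of the 4 fructose values lay above all controls. Its log2 fold change was 0.15 ± 0.10 (95% interval -0.085 to 0.39). Socs3, under the minimum for testing, was at 0.897, 0.354, 0.511 and 1.36 FPKM in control and 2.03, 1.36, 0.667 and 0.791 FPKM in fructose libraries, which overlapped.

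The phosphatase Ptpn1 had the largest SD of the members in fructose hippocampus (6.09 FPKM). It was at 13.5, 17.2, 15.9 and 15.6 FPKM in control and at 16.5, 12.004, 19.5 and 26.5 FPKM in fructose libraries, which held both the lowest and the highest value. The log2 fold change of 0.20 ± 0.21 was 0.017 without fructose replicate 4 and 0.38 without fructose replicate 2. Ptpn1 also has a second locus here, at 1.23 to 2.31 FPKM, and its values are uncertain for that reason.

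In hypothalamus the fructose means of 8 of 9 members, all but Akt2, were above the control means, and no member passed. By limma 0 of 9 members had an adjusted p under 0.05, against 0.0087% of 11498 loci tested (1 locus). Of the 9, 8 had a positive log2 fold change, against 51.5% of all loci, with a median of 0.10 against 0.0065. Leaving out single libraries moved the members' median over 0.011 to 0.21. Insr, Irs1 and Socs3 each turned negative in at least 1 of these runs. One member, Foxo1, had an unadjusted p under 0.05 (3.14% of loci), and the same gene was the 1 of 9 whose fructose libraries all lay above the controls, against 1.75% of loci. No member had all fructose libraries below the controls (1.58% of loci; 3.33% separated in either direction). With the replicate number as a block, where control replicate 4 has no partner and does not count toward the fold change, 2 loci passed in place of 1, and still 0 members.

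Foxo1 in hypothalamus was at 7.53, 6.69, 8.003 and 5.65 FPKM in control replicates 1 to 4 and at 8.61, 13.6 and 9.92 FPKM in fructose replicates 1 to 3. Every fructose value lay above every control value. The mean was 1.54 times the control mean and the log2 fold change 0.54 ± 0.18 (SE, 95% interval 0.11 to 0.97), and the limma adjusted p was close to 1. An exact two-sided permutation test gave p = 0.0286, the smallest that 4 against 3 libraries allow. Groups without overlap put this p at or near its minimum, so it adds nothing to the separation for which Foxo1 was picked out. For the other members in hypothalamus the permutation test gave p = 0.17 to 0.83. The log2 fold change of Foxo1 was 0.46 ± 0.17 with the replicate block (limma adjusted p = 0.701), 0.71 ± 0.19 without both replicate 1 libraries (0.483), and 0.37 without fructose replicate 2.

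By limma 0 genes of the cell type marker lists passed in hypothalamus, and the summed levels of the groups overlapped for the lists given here. Of the meningeal fibroblast list all 11 tested genes had a negative log2 fold change (median -1.48), and summed FPKM was 243.1 to 455.0 in control and 49.2 to 245.7 in fructose libraries. Of these 11, 8 had an unadjusted limma p under 0.05, against 3.14% of all loci. For 6 of the 11 all fructose libraries lay below the controls, against 1.58% of loci. Of the ependymal and tanycyte list 6 of 8 were positive (median 0.61), with sums of 122.9 to 174.5 and 147.4 to 218.8 FPKM, and of the endothelial list 7 of 8 were negative (median -0.26). The unadjusted limma p was under 0.05 for 3 of 8 ependymal and tanycyte, 4 of 9 mural and 1 of 8 endothelial genes. For 2 of the 8 ependymal and tanycyte genes all fructose libraries lay above the controls, against 1.75% of loci. Choroid plexus sums were 45.3 to 124.9 FPKM in control and 42.0 to 51.7 FPKM in fructose libraries, with Otx2 listed at 0 throughout. The part of these cells in the Foxo1 values was not tested. In tissue RNA, fewer cells of a type and less RNA per cell cannot be told apart.

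Pik3r1 and Irs2 had positive log2 fold changes too, with overlapping groups. Pik3r1 was at 26.6, 19.2, 18.5 and 19.6 FPKM in control and 27.7, 25.8 and 22.3 FPKM in fructose libraries, and control replicate 1 alone reached the fructose range. Its log2 fold change was 0.27 ± 0.16 (95% interval -0.10 to 0.64). Irs2 was at 18.0, 23.6, 22.6 and 21.8 FPKM in control and 20.4, 29.0 and 26.8 FPKM in fructose libraries, where replicate 1 was the lowest of each group. Its log2 fold change was 0.22 ± 0.16 (95% interval -0.15 to 0.60). For both genes the fructose library lay above the control library at each of the numbers 1 to 3. With the block the values were 0.24 ± 0.11 for Pik3r1 (limma adjusted p = 0.826) and 0.23 ± 0.099 for Irs2 (0.778).

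Akt2 was the 1 member with a negative log2 fold change, at -0.31 ± 0.25 (95% interval -0.89 to 0.27). It was at 12.04, 17.7, 22.7 and 20.7 FPKM in control and 10.7, 14.9 and 17.8 FPKM in fructose libraries. The replicate 1 libraries were again lowest. For each of the numbers 1 to 3 the fructose library lay below the control library, with the same limits on pairing and on the share of loci. With the block the value was -0.24 ± 0.10 (limma adjusted p = 0.782).

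Insr and Irs1 had overlapping groups in hypothalamus. Insr was at 5.64, 4.21, 4.62 and 4.20 FPKM in control and 4.27, 5.61 and 4.92 FPKM in fructose libraries. The log2 fold change of Insr was 0.067 ± 0.15 with all libraries and 0.23 ± 0.13 without both replicate 1 libraries. Irs1 had a control mean of 1.94 ± 0.305 FPKM (SD, n = 4) and a fructose mean of 2.06 ± 0.151 FPKM (n = 3), with a log2 fold change of 0.062 ± 0.14. The profiles most like that of Insr over the 7 libraries were those of Lyn, Vcam1 and Hpcal4 (root mean square differences of 0.217, 0.258 and 0.278 in SD units), and over the 8 hippocampus libraries those of Rab3gap2, Dnajb14 and Glg1 (0.206, 0.214 and 0.217). For Lepr in hippocampus they were Kcnh6, Pde1c and Pde6d (0.282, 0.314 and 0.332), a likeness to values near 0.

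Of the leptin pathway in hypothalamus, Stat3 was at 23.2, 23.8, 32.1 and 27.0 FPKM in control and 22.1, 34.3 and 31.6 FPKM in fructose libraries, with overlapping groups. The log2 fold change of Stat3 was 0.13 ± 0.19, and ran from 0.0061 without fructose replicate 2 to 0.31 without fructose replicate 1. Socs3 was at 1.35, 1.73, 3.01 and 3.20 FPKM in control and 1.01, 3.62 and 3.48 FPKM in fructose libraries, with replicate 1 lowest in each group. Its log2 fold change of 0.10 ± 0.35 has a 95% interval of -0.71 to 0.92, the widest of the 9, and was -0.10 without fructose replicate 2 and 0.49 without fructose replicate 1. Ptpn1 was at 5.18, 4.71, 5.47 and 5.06 FPKM in control and 4.38, 6.12 and 6.01 FPKM in fructose libraries, with overlap. The log2 fold change of Ptpn1 was 0.081 ± 0.14, and ran from 0.011 without fructose replicate 2 to 0.21 without fructose replicate 1.

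The position of replicate 1 bears on most hypothalamic members. Without both replicate 1 libraries, which leaves 3 control against 2 fructose libraries, the fructose values of 6 of the 9 members (Foxo1, Insr, Irs2, Pik3r1, Ptpn1 and Socs3) lay above all controls, where 14.8% of all loci did. The log2 fold changes in that fit were 0.32 for Pik3r1, 0.29 for Irs2, 0.34 for Socs3, 0.25 for Stat3, 0.22 for Ptpn1, 0.030 for Irs1 and -0.29 for Akt2, beside those of Foxo1 and Insr given above. None passed (smallest limma adjusted p among members 0.483). In the same libraries 0 of the 9 members lay below all controls, where 12.7% of all loci did. In hippocampus without both replicate 1 libraries 0 of 8 members separated upward, against 1.44% of loci, and 0 of 8 downward, against 2.61%. These counts were added after seeing the data. The hippocampus log2 fold changes were then -0.39 for Irs1, 0.17 for Ptpn1, 0.13 for Stat3 and 0.085 for Insr. Those of the other members were 0.058 for Foxo1, 0.057 for Irs2, -0.066 for Akt2 and -0.072 for Pik3r1. None of them changed sign or passed.

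**Figure D3:**
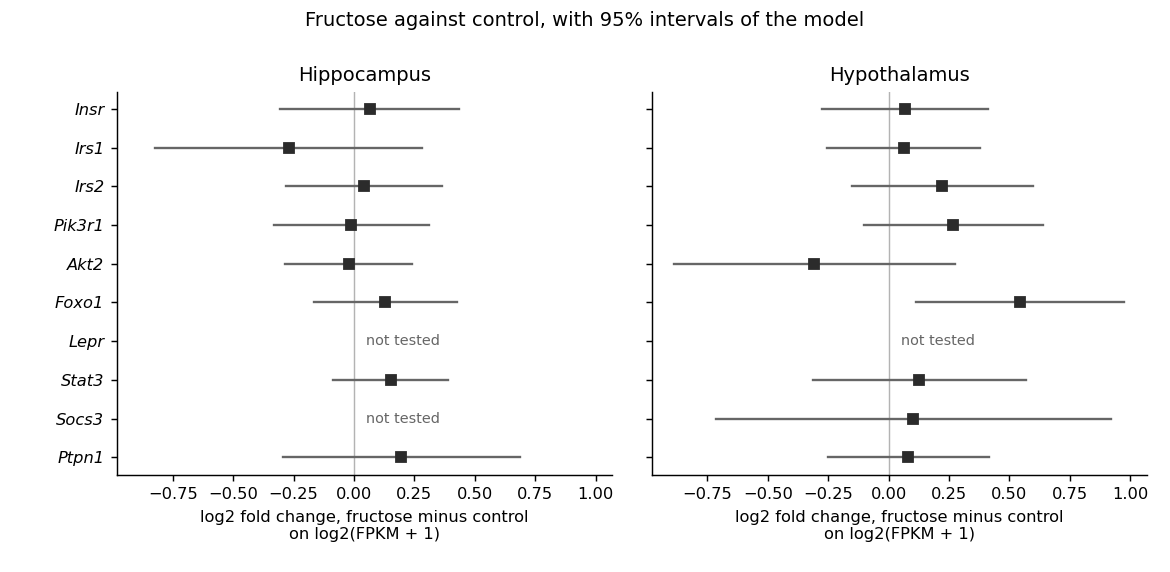
Log2 fold change of fructose against control for each gene (squares), with the 95% interval of the limma model (lines), by region. In hypothalamus the interval of Foxo1 (0.11 to 0.97) is the 1 that does not include 0, and in hippocampus all 8 include 0.

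Whether the change with fructose differed between the regions was tested as an interaction over 9931 symbols tested in both. By limma 0 of 8 members passed, against 0% of the symbols, and 0 of the 8 had an unadjusted p under 0.05 (2.31% of symbols). For Foxo1 the change in hypothalamus exceeded that in hippocampus by 0.41 ± 0.22 on the log2 scale (95% interval -0.066 to 0.89), so a difference between the regions was not shown. Without both replicate 1 libraries it was 0.65 ± 0.25 (limma adjusted p close to 1). The other 7 differences lay between -0.28 (Akt2) and 0.33 (Irs1), and all of their intervals included 0. That of Irs1 went to 0.078 without hippocampus control replicate 4.

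Other genes of the pathways were read from 5 lists. Of 15 tested genes on the insulin and IGF receptor side in hypothalamus, 8 were positive and 7 negative, with a median of 0.034. The adaptor Crk had a control mean of 27.1 ± 4.30 FPKM (SD, n = 4) and a fructose mean of 37.2 ± 4.90 FPKM (n = 3); pairs of means below are in the same order. The RAS exchange factor Sos1 was at 16.1 ± 1.37 and 19.3 ± 0.947 FPKM, without overlap. Sos1 was the 1 of the 15 with all fructose libraries above the controls, against 1.75% of all loci. In hippocampus 6 of 13 were positive and 7 negative (median -0.0099), led by Enpp1, an ectoenzyme that binds the insulin receptor (2.11 ± 0.810 and 3.00 ± 0.902 FPKM). In hypothalamus Enpp1 was at 4.62 ± 0.907 and 3.21 ± 0.794 FPKM.

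Among the genes of PI3K, AKT and mTOR in hypothalamus, 19 of 27 were positive and 8 negative, with a median of 0.081. Slc2a4, the insulin-regulated glucose transporter GLUT4, had the smallest p of the list. It was at 1.57, 1.85, 2.16 and 2.495 FPKM in control and 0.940, 0.897 and 1.31 FPKM in fructose libraries, without overlap (log2 fold change -0.55 ± 0.16, limma adjusted p close to 1). Its fructose values lay near the minimum of 1 FPKM set for testing. Slc2a4 was the 1 of the 27 below all controls, against 1.58% of all loci. Another 1 of the 27 lay above all controls, against 1.75%. In the same libraries all 11 meningeal, 7 of 8 endothelial and 6 of 9 mural markers had negative log2 fold changes (mural sums of 362.4 to 728.04 and 240.1 to 442.6 FPKM), and their part in the Slc2a4 values was not tested. The kinase Gsk3b was at 18.8 ± 2.32 and 26.0 ± 6.64 FPKM and the kinase Sgk1 at 56.4 ± 11.5 and 37.3 ± 20.2 FPKM, both with overlap. Sgk1 (-0.69) and the translation repressor Eif4ebp1 (-0.58, at 17.1 ± 5.93 and 11.3 ± 4.94 FPKM) had more negative log2 fold changes than Slc2a4. In hippocampus 14 of 28 were positive and 14 negative (median 0.0022), and Slc2a4 was at 1.88 ± 0.919 and 2.54 ± 1.02 FPKM.

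Around the leptin receptor, 16 of 28 JAK and STAT pathway genes were positive in hypothalamus and 12 negative, with a median of 0.064. Lifr, the receptor of leukaemia inhibitory factor, was at 3.57, 2.70, 2.85 and 1.80 FPKM in control and 3.70, 4.46 and 4.11 FPKM in fructose libraries, all above the controls (log2 fold change 0.47 ± 0.18, limma adjusted p close to 1). Lifr was the 1 of the 28 to separate upward, against 1.75% of all loci. Its partner Il6st (gp130), with 2 loci and therefore uncertain, was at 18.0 ± 6.13 and 24.6 ± 3.02 FPKM. In hippocampus 16 of 25 were positive and 9 negative (median 0.037). Stat6, which serves interleukin receptors, was at 5.34, 4.99, 3.35 and 4.91 FPKM in control and 5.90, 7.63, 6.16 and 5.39 FPKM in fructose libraries, all above the controls (log2 fold change 0.37 ± 0.16, limma adjusted p close to 1). Stat6 was the 1 of the 25 to separate upward in hippocampus, against 0.255% of all loci. In those libraries 11 of 11 meningeal markers (sums of 50.6 to 484.2 FPKM in control and 195.9 to 729.5 FPKM in fructose libraries), 7 of 8 mural, 7 of 8 endothelial and 8 of 9 choroid plexus markers had positive log2 fold changes, and 8 of 8 oligodendrocyte markers negative ones. None of these markers passed, and their part in the Stat6 values was not tested. In hypothalamus Stat6 was at 3.97 ± 1.104 and 2.94 ± 0.915 FPKM.

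Textbook targets of FOXO factors and of STAT3 were more often negative than positive in hypothalamus. Of 17 FOXO targets 6 were positive and 11 negative (median -0.057), where 51.5% of all loci were positive. The median of the FOXO targets ran from -0.11 to 0.042 when single libraries were left out, so its sign was not stable. Txnip, an inhibitor of thioredoxin, was at 49.9 ± 9.50 and 31.7 ± 13.5 FPKM. Of 14 STAT3 targets 3 were positive and 11 negative (median -0.24), while Stat3 itself had a log2 fold change of 0.13. Cebpd, a transcription factor, was at 8.82 to 14.3 FPKM in control and 5.12 to 8.61 FPKM in fructose libraries, without overlap. Junb was at 24.4 ± 2.86 and 16.7 ± 5.73 FPKM and Fos at 36.1 ± 5.34 and 27.0 ± 5.23 FPKM, both genes that neuronal activity and stress induce as well. Ch25h, the cholesterol 25-hydroxylase, had the most negative log2 fold change of the list (-1.74 ± 0.37, at 9.65 ± 2.47 and 2.43 ± 1.57 FPKM, without overlap). Cebpd and Ch25h were the 2 of the 14 with all fructose libraries below the controls, against 1.58% of all loci. The marker values given for Foxo1 and Slc2a4 are from the same libraries, and their part in the values of these lists was not tested. In hippocampus the FOXO targets were 8 positive and 8 negative (median 0.0074) and the STAT3 targets 9 and 6 (median 0.045). Of these 5 lists 0 genes passed in either region by limma. In hippocampus 1 had an unadjusted p under 0.05, in the JAK and STAT list, where 0.808% of all loci had one. In hypothalamus 3.14% of all loci had one, and so did 4 of the 14 STAT3 targets and 1 gene in each of the other lists.

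**Figure D4:**
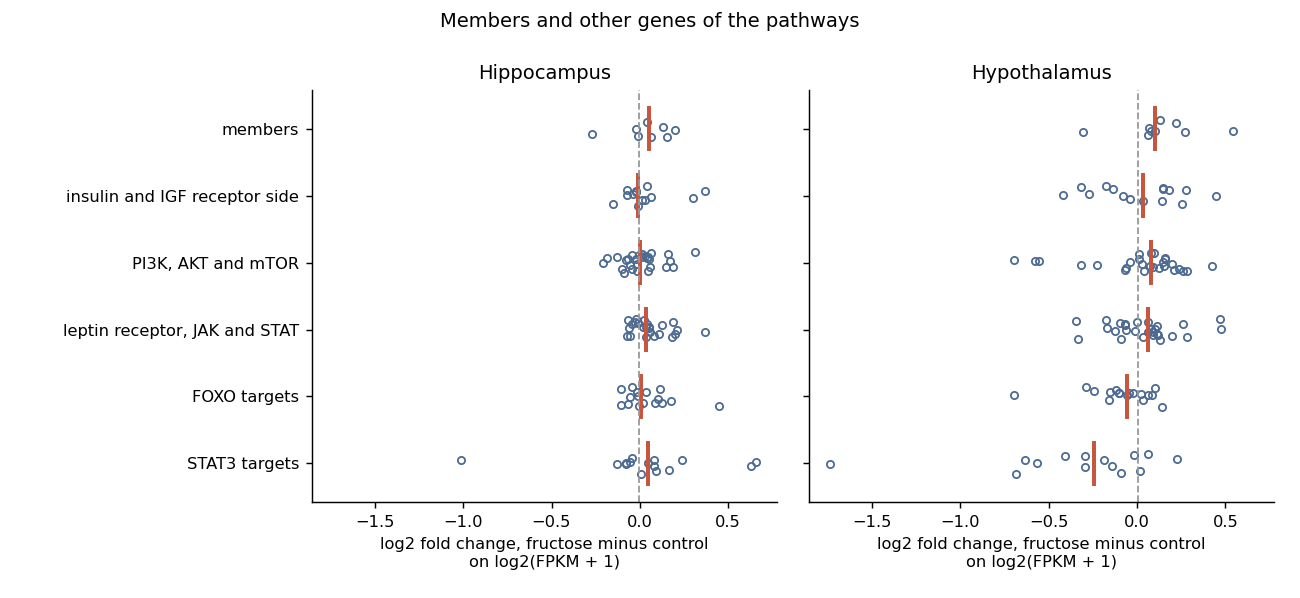
Log2 fold change of fructose against control for each tested gene (points) of the 10 members and of the 5 lists, by region; red bars are list medians, and the dashed line is the median of all loci tested (-0.0038 in hippocampus, 0.0065 in hypothalamus). In hypothalamus the median of the members is 0.10 and that of the STAT3 targets -0.24.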

How the data were processed

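Per the submitters' processing notes, the authors used TopHat and TopHat2, Bowtie and Bowtie2, Cufflinks, Cuffdiff and the rn5 build (versions not given in the sources used here); CASAVA 1.8.2 is named in the labels' protocols. The deposited values are FPKM per locus, with a status flag that was OK for all members. From these, log2(FPKM + 1) was tested with limma 3.58.1 in R 4.3.3 (moderated test with a trend, group as the only term, loci with a mean of at least 1 FPKM, Benjamini-Hochberg at 0.05), separately in each region and as an interaction over symbols. The script was tested on simulated data. FPKM are given with the SD, log2 fold changes with the model's SE. Plots were made in matplotlib 3.10.9.

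The members and the lists were chosen with earlier results of these data known, so lists are described by counts and medians only. Beside the members, the rule for named genes took up to 4 genes of the smallest p per list and region and the 3 profiles most like Insr and Lepr. Region marker genes are named for the check of the labels.

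Depth is unknown. For replicates 2 to 4, 31.8% to 55.7% of ratios of values under 0.05 FPKM to control replicate 2 fell in a single 1% bin, and for the replicate 1 libraries 2.83% to 4.55%.

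Replicate numbers are those of the labels; their meaning is not given there. Deviations from group means correlated between same-numbered libraries at 0.89, 0.21, 0.48 and 0.41 (hippocampus 1 to 4) and 0.85, 0.49 and 0.46 (hypothalamus 1 to 3). These values include the replicate 1 libraries, which differed from the rest. Without replicate 1 the values were -0.23, 0.40 and 0.09 (hippocampus 2 to 4), and 0.27 and 0.04 (hypothalamus 2 and 3). A pairing of replicates 2 to 4 was therefore not shown. The block on the number is given as an alternative setting that treats same-numbered libraries as pairs.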

Additional observations from a re-analysis of the deposited data

Results flagged for a closer look

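In 3 of the 29 groups of 4 libraries examined, 1 library lay far from the others by Dixon's criterion; chance alone gives about 1 in 20 groups. Irs1 was at 6.97 FPKM in hippocampus control replicate 4, where the other controls were at 2.90 to 2.97 FPKM. The same library had the lowest value of Insr at its main locus and the highest at its second one. Pik3r1 was at 26.6 FPKM in hypothalamus control replicate 1, where the other controls were at 18.5 to 19.6 FPKM; the replicate 1 fructose library was the highest of its group too. Lepr was at 0.0208 FPKM in hippocampus fructose replicate 3 and listed at 0 in the other fructose libraries, a level too low to read.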

How the results depend on the processing

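No member passed under any alternative run (smallest limma adjusted p 0.483). Over all loci the count of calls in hypothalamus, 1 with all libraries, was 0 at a mean of at least 5 FPKM, 2 with the replicate block and 2 without both replicate 1 libraries. Leaving out single libraries gave 0 to 1 in hippocampus (1 without control replicate 3), 0 to 2 in hypothalamus (2 without control replicate 1, 3 or 4, 0 without fructose replicate 2 or 3) and 0 to 1 for the difference between regions (1 without hypothalamus control replicate 3). The log2 values of members that changed sign follow. Insr in hippocampus was -0.049 when its loci were summed. For the difference between regions, Insr was -0.037 with the replicate block, and Stat3 and Ptpn1 were 0.13 and 0.046 without both replicate 1 libraries. Leaving out 1 library moved hippocampus Insr over -0.089 to 0.14, Irs2 over -0.023 to 0.12, Akt2 over -0.11 to 0.024 and Pik3r1 over -0.091 to 0.083. In hypothalamus it moved Insr over -0.014 to 0.15, Irs1 over -0.0082 to 0.12 and Socs3 over -0.10 to 0.49. For the difference between regions the ranges were -0.079 to 0.16 for Insr, -0.15 to 0.16 for Stat3 and -0.30 to 0.065 for Ptpn1. List medians changed sign as well, among them that of the FOXO targets in hypothalamus (-0.11 to 0.042). The median of the STAT3 targets there stayed negative (-0.35 to -0.12). The cause was not tested. Foxo1 in hypothalamus was positive under all of these, at 0.37 to 0.68 when single libraries were left out. The replicate block changed no other call. The count of members without overlap in the libraries of replicates 2 to 4 was added after seeing the data.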

Other observations

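The second Insr locus in hippocampus followed the replicate number in both groups. Its share of the summed Insr FPKM was 44.6% and 26.7% in control and fructose replicate 4, 15.99% and 9.33% in replicate 2, 1.75% and 0% in replicate 3, and 1.31% and 0.549% in replicate 1. Replicate 4 was thus highest and replicate 2 next in both groups. Ptpn1, the other member with 2 loci, held 5.98% to 12.2% at its second locus, a narrower range. The Ptpn1 share was highest in replicate 2 and next highest in replicate 3 in both groups. What the replicate numbers stand for was not tested. Serpina3n, an acute phase gene of the STAT3 target list, was at 8.79 FPKM in 1 hippocampus control library and at most 0.0758 FPKM in the fructose libraries. The lowest control value was 0 FPKM and the control mean 2.40 FPKM, and the groups overlapped.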
